A study of Caenorhabditis elegans with 10 samples.

Results

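The 106 genes described here encode peptide signals of the nematode Caenorhabditis elegans: 25 flp genes (FMRFamide-like peptides), 58 nlp genes (neuropeptide-like proteins) and 23 ins genes (insulin-like peptides). They were chosen by symbol alone, as every gene of the array annotation named flp, nlp or ins with a number and read by a probe set that names no other gene. Where a gene had several such probe sets, the 1 with the highest mean over all arrays was used. The 106 genes are part of 17118 genes named on the array, and RefSeq lists 147 protein-coding genes with such symbols (31 flp, 78 nlp and 38 ins). Total RNA from whole young adult worms was hybridised to Affymetrix whole-genome arrays, 1 array per sample, and the biological replicates numbered 5 for the gas-1 (fc21) mutant and 5 for wild-type N2 (Bristol) worms. GAS-1 is a core protein of mitochondrial complex I, where electrons enter respiration; fc21 changes an amino acid of it in every cell of the mutant. All animals were sorted by size as young adults and fed OP50 bacteria, each sample pooled many worms, and the mutant is represented by a single strain and allele. The comparison asks which of these peptide genes had different transcript levels in the mutant.

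Neuropeptides are cut from larger precursor proteins inside dense-core vesicles, many are amidated at the C terminus, and most act on G-protein-coupled receptors of other cells. The flp genes encode peptides ending in arginine and phenylalanine amide that tune locomotion, feeding, egg laying and sleep. The nlp genes are a mixed collection of other precursors, and a set of them (nlp-24 to nlp-34) encodes glycine-rich peptides, several of which are made in the epidermis and are known as antimicrobial peptides induced by fungal infection and wounding. The ins genes encode insulin-like peptides that activate or block DAF-2, the only insulin receptor of the classical type in the worm, which controls growth, dauer arrest and lifespan. Many ins genes are expressed in sensory neurons, and some in the intestine and epidermis. Because whole worms were measured, a difference in RNA per cell and a difference in the number or size of the cells that make it cannot be told apart.

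Values are log2 intensities as deposited, so a step of 1 is a doubling. A probe set's level depends on its probes, so levels of different genes are given as a description only. The gas-1 transcript was at 11.11 ± 0.21 in mutants, compared with 10.44 ± 0.19 in wild-type worms (SD, n = 5), with no overlap (difference 0.67, SE 0.12, limma adjusted p = 0.00567), which does not check the labels because fc21 is a missense allele and leaves the transcript in place. Control probe sets for bacterial genes served as the background, with array medians between 4.39 and 4.69 in gas-1 worms and between 4.43 and 5.25 in N2 worms. Among the 106 genes, 86 lay above that median on all 10 arrays (22 flp, 46 nlp and 18 ins genes). The means of 5 genes (nlp-22, nlp-67, nlp-69, ins-21 and ins-31) were at or below it in both groups, and their values were not read as expression.

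The arrays of each group were not uniform, and marker genes of several tissues moved with single arrays. Sperm markers (15 of 19 measured) had a mean level of 9.87 to 9.95 on the first 4 wild-type replicates but 7.78 on the fifth. The same markers were at 6.56 to 6.66 on mutant replicates 1 to 3 and at 9.03 and 8.92 on mutant replicates 4 and 5. Muscle markers (8 of 8) were at 10.55 on both of these mutant arrays and at 9.52 to 9.69 on the other mutant arrays, and epidermis markers (12 of 12) were at 10.00 and 9.97 against 8.98 to 9.05. The log2 of the summed intensity of 20 neuron markers was between 12.04 and 12.40 in mutants and between 11.89 and 12.03 in wild-type worms. These ranges did not overlap, by a small margin. The mean level of the same markers did overlap, from 6.56 to 6.87 in mutants and from 6.35 to 6.69 in wild-type worms. On mutant replicates 1 to 3 that mean was below wild-type replicates 1 to 4. It was highest on mutant replicates 4 and 5 and lowest on wild-type replicate 5. Of the single neuron markers 1 rose (snb-1), 0 fell, and the median difference was 0.02. Among the single markers 2 sperm markers and 1 intestine marker fell, 1 muscle marker rose, and no epidermis marker passed, although all 12 had positive differences. The median difference was 0.41 for the epidermis markers and -2.66 for the sperm markers. The log2 summed level ran from 10.99 to 14.42 in mutants and from 12.75 to 15.58 in N2 for sperm, from 13.56 to 14.26 and from 13.01 to 13.78 for muscle, and from 15.56 to 15.86 and from 15.12 to 15.63 for epidermis. The summed level of the intestine, oocyte and pharynx markers (10 of 10, 13 of 13 and 7 of 7) overlapped between the groups, and no marker of any list was at 0 on any array. Wild-type replicates 1 and 5 and mutant replicates 4 and 5 stood apart from their groups in earlier results of these data, so counts are also given without these 4 arrays.

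Most flp genes had a higher mean in the mutant, and few of the single differences passed the test. Of the 25 flp genes, 23 had a positive difference, with a median of 0.33 on the log2 scale against 0.00 for all 17118 genes. At a limma adjusted p under 0.05 over all 22548 probe sets, 3 flp genes rose (flp-22, flp-24 and flp-18), 0 fell and 22 did not pass, 12% that rose where 7.55% of all genes rose and 4.47% fell. Without the 4 arrays that stand apart, 17 of 25 had a positive difference, the median was 0.07, and 3 flp genes rose (flp-22, flp-24 and flp-6) and 2 fell (flp-1 and flp-19), where 10.4% of all genes rose and 11.5% fell. Over all arrays the differences of the 22 flp genes that did not pass ran from -0.18 to 0.84.

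**Figure D1:**
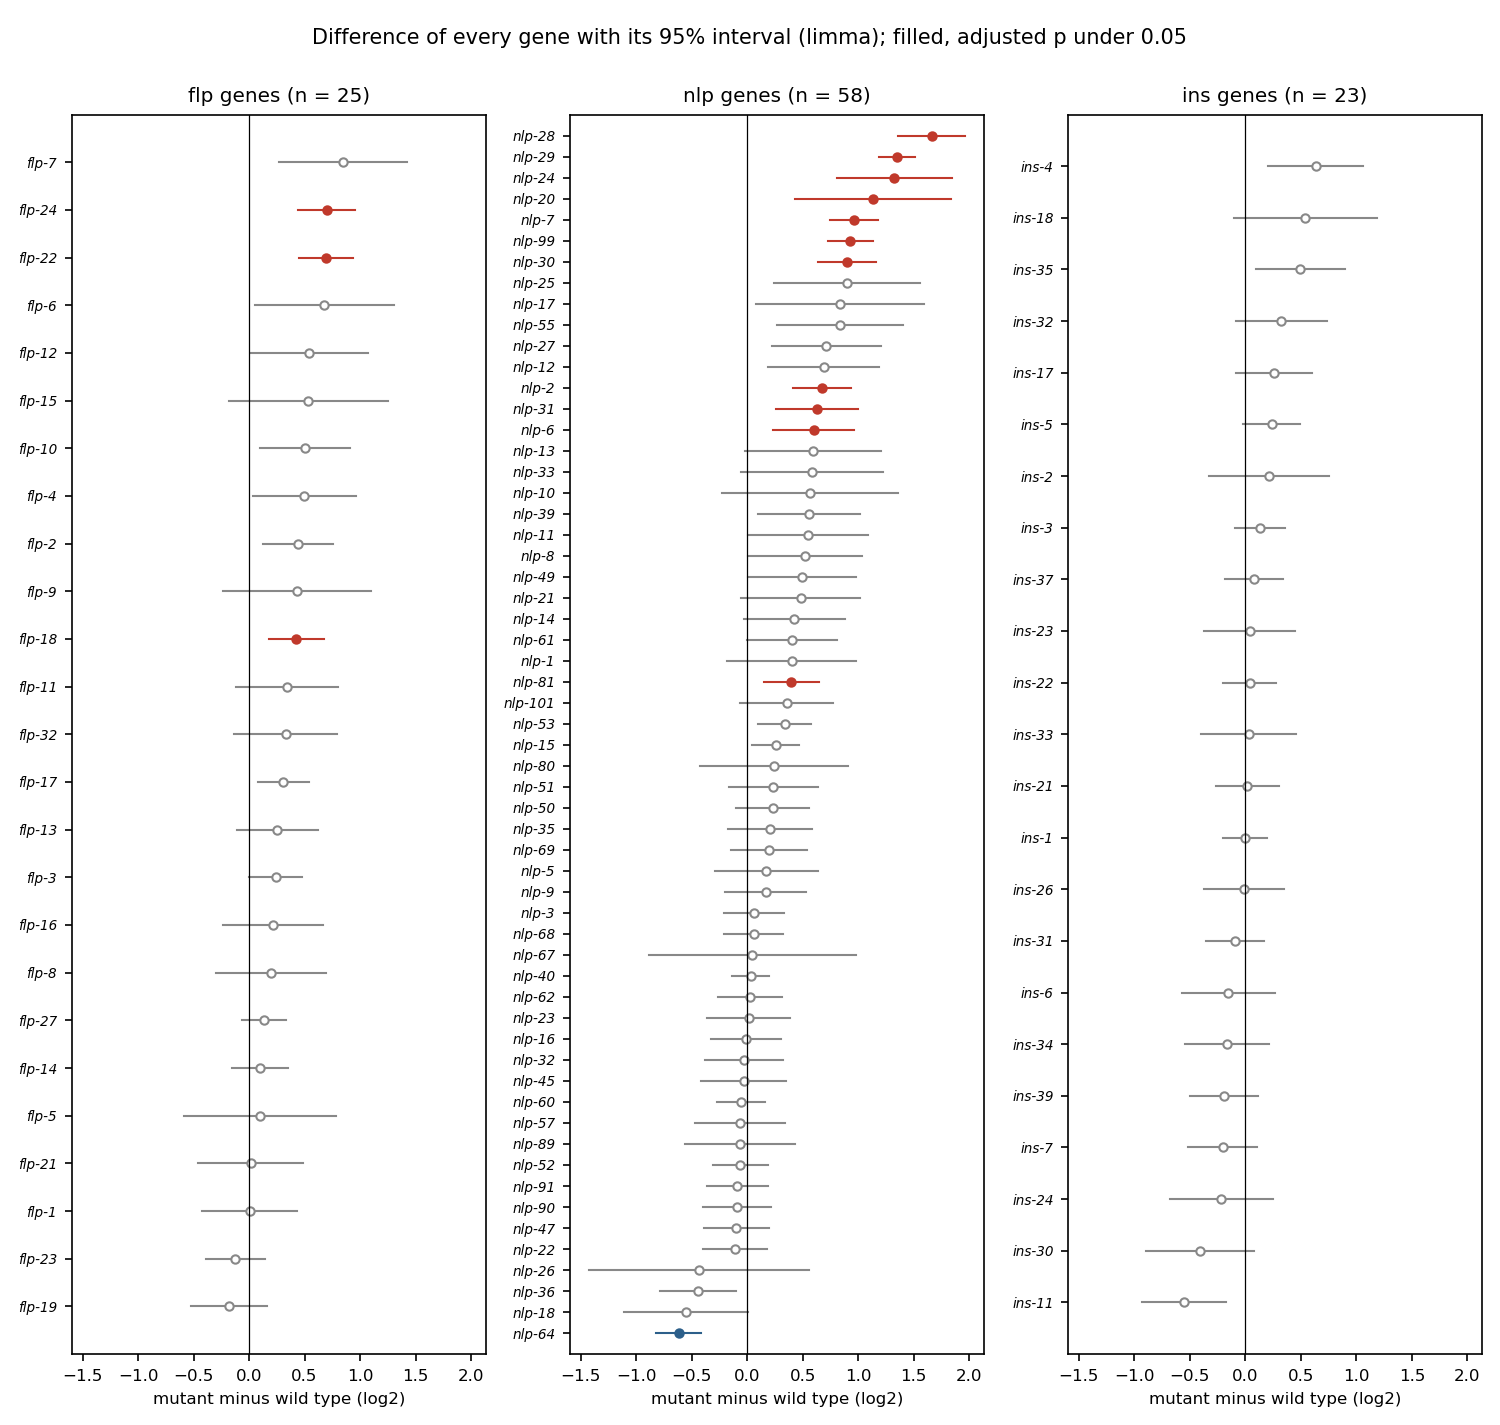
Difference between mutant and wild type (log2, x axis) for every flp, nlp and ins gene (rows, ordered within each family), with points for the estimate and lines for its 95% interval from limma; filled points passed at an adjusted p under 0.05, in red where higher and in blue where lower. The flp and nlp points lie mostly to the right of 0, with 3 and 11 filled red points and 1 filled blue point (nlp-64), while the ins points are spread on both sides with none filled.

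The flp genes that rose did so by less than a doubling. On mutant replicates 1 to 5, flp-22 was at 8.85, 8.72, 8.80, 9.18 and 9.13, and on wild-type replicates 1 to 5 at 8.46, 8.15, 8.30, 8.18 and 8.13. Every mutant array was above every wild-type array, and the means differed by 0.69 (SE 0.11, 1.62-fold, limma adjusted p = 0.00261). Sleep under stress is promoted by FLP-24 peptides, which the ALA neuron releases. The level of flp-24 was 8.49, 8.30, 8.28, 8.54 and 8.53 in gas-1 worms, against 7.45, 7.89, 7.95, 7.85 and 7.51 in N2 worms. The groups did not overlap, and the difference was 0.70 (SE 0.12, 1.62-fold, limma adjusted p = 0.00327). Both genes passed under each of the 20 alternatives tried, with limma adjusted p between 0.000293 and 0.0272 for flp-22 and between 0.000936 and 0.0352 for flp-24.

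For flp-18, whose peptides act on the receptors NPR-1, NPR-4 and NPR-5 and adjust excitability and foraging, the rise was smaller. Its levels were 7.16, 7.10, 7.13, 7.54 and 7.46 in mutants, compared with 6.75, 7.01, 6.94, 6.90 and 6.66 in wild-type worms. The lowest mutant array lay just above the highest wild-type array, and the difference was 0.43 (SE 0.11, 1.34-fold, limma adjusted p = 0.0343). The call ended when any 1 of 6 arrays was left out (wild-type replicates 1, 3, 4 and 5 and mutant replicates 4 and 5, limma adjusted p up to 0.0802). It also ended without the 4 arrays that stand apart, where the difference was 0.18 (limma adjusted p = 0.106).

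Several flp genes with a clear mean difference did not pass. The largest mean difference was in flp-7, which encodes peptides that link serotonin signals to fat loss in the intestine, at 6.93, 6.63, 6.45, 7.58 and 7.54 in gas-1 worms, against 5.87, 6.42, 6.47, 6.49 and 5.66 in N2 worms. Mutant replicates 4 and 5 were the highest, wild-type replicates 1 and 5 the lowest, and the groups met at about 6.5, for a difference of 0.84 (SE 0.26, limma adjusted p = 0.0613). In flp-17, a BAG neuron peptide gene that acts through the receptor EGL-6 to inhibit egg laying, the difference was 0.31 (SE 0.10, limma adjusted p = 0.0872), with mutant arrays from 7.43 to 7.66 and wild-type arrays from 6.99 to 7.48. The gene flp-2, which promotes locomotor arousal, had no overlap between groups on its brighter probe set but did not pass there (7.19 ± 0.23 and 6.75 ± 0.24, SD, n = 5, difference 0.44, SE 0.14, limma adjusted p = 0.0738). Its dimmer probe set, chosen after its values were seen, was at 7.05 ± 0.16 in mutants, compared with 6.41 ± 0.06 in wild-type worms (SD, n = 5), and passed with a difference of 0.64 (SE 0.09, limma adjusted p = 0.00094).

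The level of flp-6 divided the arrays across both genotypes. It was at 9.29, 9.27 and 9.22 on mutant replicates 1 to 3 and at 8.38 and 8.41 on mutant replicates 4 and 5. In the wild type it was at 8.20, 8.04, 7.91 and 7.88 on replicates 1 to 4 and at 9.15 on replicate 5. The 4 arrays with the highest flp-6 level were the 4 with the lowest level of sperm markers, and the part of that difference in flp-6 was not tested. Over all arrays the difference was 0.68 (SE 0.28, limma adjusted p = 0.161), and without the 4 arrays that stand apart it was 1.32 (limma adjusted p = 2.09e-05).

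**Figure D2:**
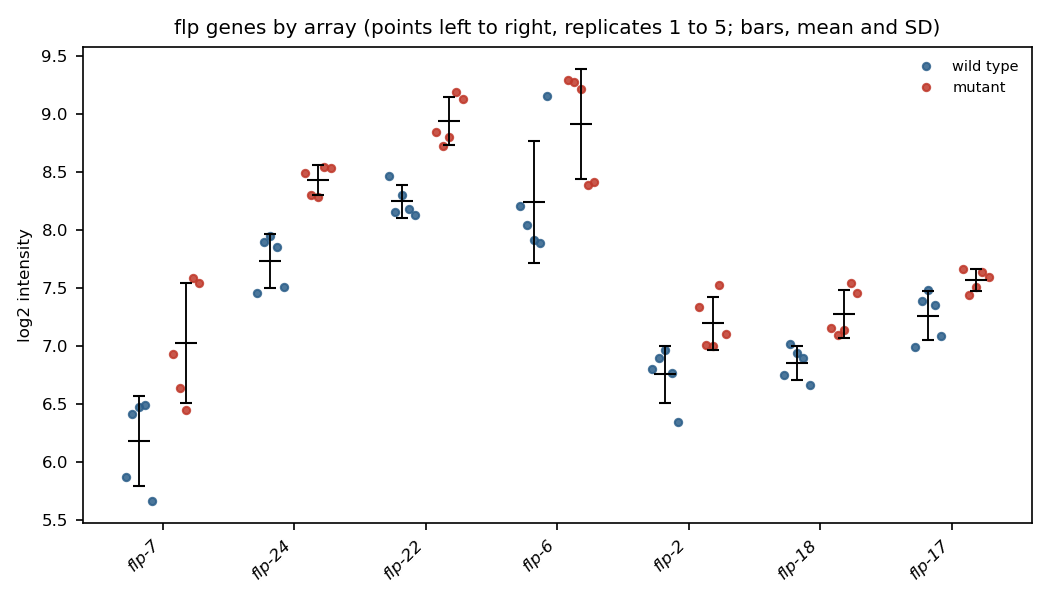
Log2 intensity (y axis) of 7 flp genes on every array, in blue for the wild type and in red for the mutant; bars are the mean and SD of 5 arrays. The groups do not overlap for flp-22, flp-24, flp-18 and flp-2, whereas flp-6 has wild-type replicate 5 at 9.15, just below mutant replicates 1 to 3 and above mutant replicates 4 and 5.

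Among the nlp genes 11 rose, 1 fell and 46 did not pass, out of 58. The share that rose was 19% (18.97%), against the 7.55% of all genes given above, and the share that fell was 1.72%, against 4.47%. Positive differences were seen in 43 nlp genes, and the median was 0.30. The groups did not overlap for 12 nlp genes, 11 of them higher and 1 lower in the mutant, where 8.31% of all genes were higher and 4.91% lower without overlap. Without the 4 arrays that stand apart, 31 of 58 differences were positive with a median of 0.10, and 16 nlp genes rose and 6 fell, where 10.4% of all genes rose and 11.5% fell.

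The largest rises were in the glycine-rich set. Of the 11 genes nlp-24 to nlp-34, 10 were measured, 5 rose (nlp-28, nlp-29, nlp-24, nlp-30 and nlp-31), 0 fell and 5 did not pass. Of all genes 7.55% rose and 4.47% fell. The median difference of the set was 0.80. The epidermis markers had a median difference of 0.41. Their mean level was above the wild-type range (8.92 to 9.13) only on mutant replicates 4 and 5 (10.00 and 9.97). On mutant replicates 1 to 3 it was within that range (8.98 to 9.05). The part of the epidermis markers in these rises was not tested. Counts in this set are not those of independent genes, because nlp-27 to nlp-31 were read on probe sets with the suffix _x_at, which marks probes that can also bind other transcripts. RefSeq places nlp-34, nlp-31, nlp-30, nlp-29, nlp-28 and nlp-27 next to each other on chromosome V, in this order, with nlp-34 not analysed here.

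Transcript of nlp-28 was at 9.43, 9.30, 9.37, 9.79 and 9.78 in gas-1 worms, against 7.82, 7.76, 7.77, 7.76 and 8.26 in N2 worms. It showed the largest difference of all 106 genes, 1.66 (SE 0.14, 3.16-fold, limma adjusted p = 3.52e-05), and the nearest arrays of the groups were still about 1 apart. The antimicrobial peptide gene nlp-29, a standard reporter of epidermal infection and wounding, was at 9.02, 8.94, 8.92, 9.05 and 9.20 in mutants, compared with 7.56, 7.66, 7.73, 7.74 and 7.68 in wild-type worms. The groups were more than 1 apart, and the difference of 1.35 (SE 0.07, 2.55-fold) had a limma adjusted p of 2.42e-06. Without the 4 arrays that stand apart, limma gave differences of 1.60 for nlp-28 and 1.25 for nlp-29.

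The neighbours on either side differed by less. For nlp-30 the mutant arrays were at 7.20, 7.03, 6.88, 7.13 and 7.41 and the wild-type arrays at 6.18, 6.17, 6.43, 6.39 and 5.98, and the means differed by 0.90 (SE 0.12, 1.87-fold, limma adjusted p = 0.000856). For nlp-31, also an antimicrobial peptide gene, the mutant arrays were at 9.0, 8.70, 8.74, 8.75 and 8.83 and the wild-type arrays at 8.31, 8.35, 8.37, 8.37 and 7.49. Wild-type replicate 5 stood well below the rest. The difference of 0.63 (SE 0.17, 1.54-fold, limma adjusted p = 0.036) did not pass without any 1 of 8 arrays (limma adjusted p up to 0.0793), and passed without wild-type replicate 5 (limma adjusted p = 0.00335). The same array was low for nlp-27, at 8.03 against 9.15, 9.21, 9.24 and 9.19 on the other wild-type arrays. Mutant arrays of nlp-27 were at 9.52, 9.62, 9.52, 9.82 and 9.90, above all wild-type arrays, yet the difference of 0.71 (SE 0.22, limma adjusted p = 0.0643) did not pass with all arrays and passed without wild-type replicate 5 (limma adjusted p = 0.00787).

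Away from that run of neighbours, nlp-24 rose and the other members of the set did not pass. Peptides of nlp-24 have been described as opioid-like signals that stimulate feeding during starvation. It was at 5.74, 6.11, 5.78, 6.08 and 6.46 in gas-1 worms, against 4.27, 5.10, 5.22, 4.88 and 4.10 in N2 worms, and the means differed by 1.32 (SE 0.23, 2.50-fold, limma adjusted p = 0.00455). Only 3 of the 5 wild-type arrays were above the background controls, so the fold may understate the change. In nlp-25 (difference 0.90, SE 0.30, limma adjusted p = 0.0785) and nlp-33 (0.59, SE 0.29, limma adjusted p = 0.241) mutant replicates 4 and 5 were far above mutant replicates 1 to 3, at 6.87 and 7.03 against 5.66 to 5.84 for nlp-25 and at 9.90 and 9.93 against 8.64 to 8.76 for nlp-33. These are the 2 arrays with the highest epidermis markers, whose part in the result was not tested. For nlp-26 the wild type was at 8.78, 8.59, 8.67 and 8.67 on replicates 1 to 4 and at 6.36 on replicate 5, which left the difference of -0.44 (SE 0.45, limma adjusted p = 0.617) unresolved. Without wild-type replicate 5, nlp-26 fell (limma).

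**Figure D3:**
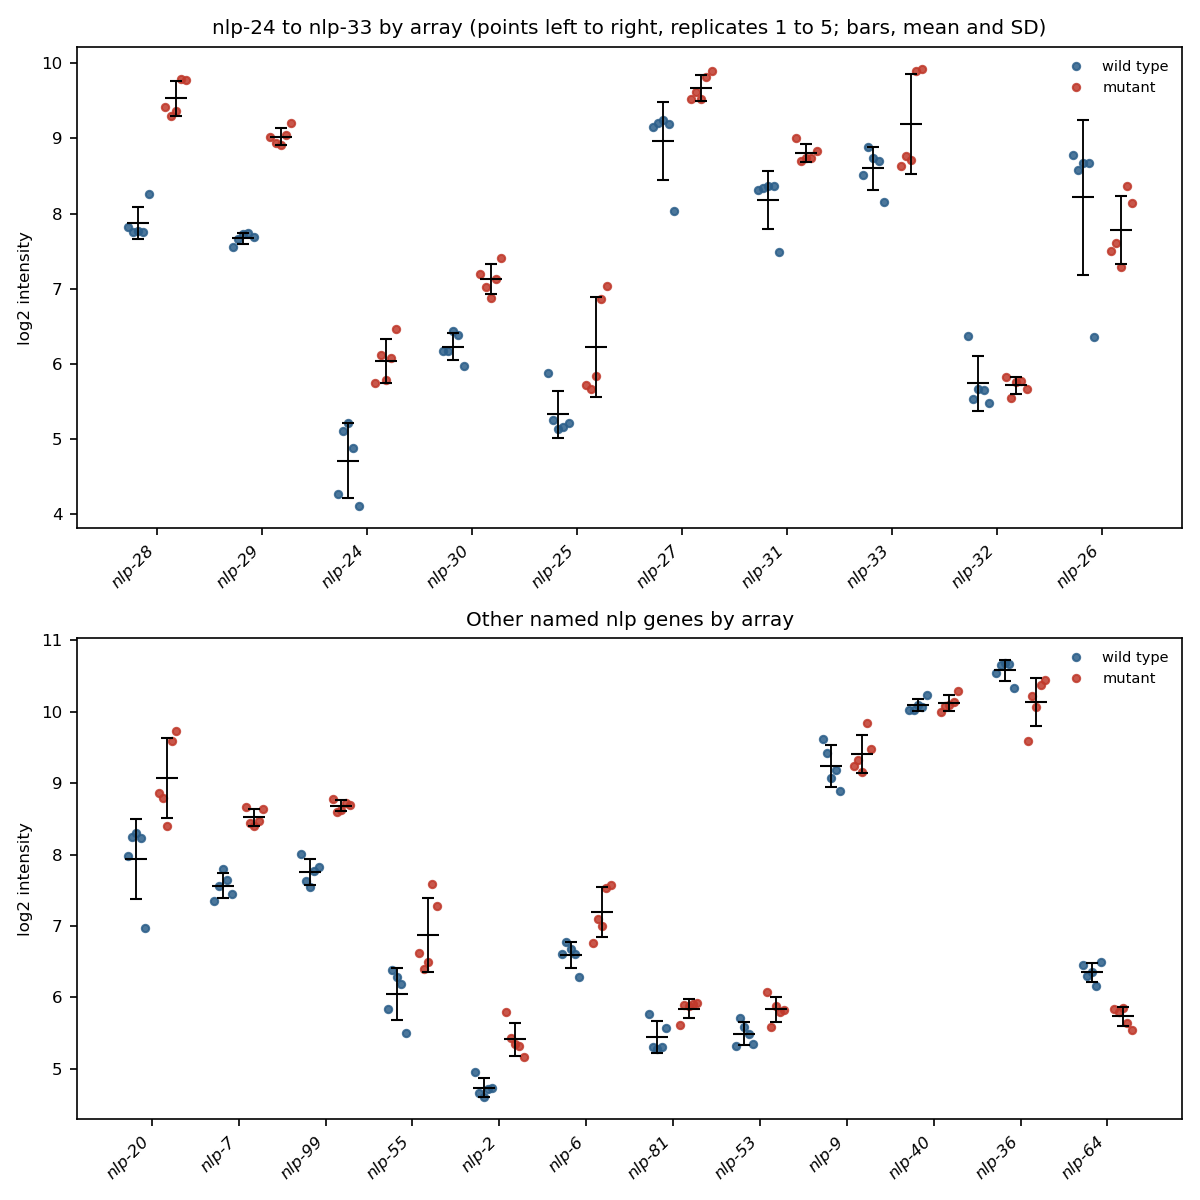
Log2 intensity (y axis) of the 10 measured genes from nlp-24 to nlp-33 (top) and of 12 other nlp genes (bottom) on every array, in blue for the wild type and in red for the mutant; bars are the mean and SD of 5 arrays. The groups are far apart for nlp-28 and nlp-29, and wild-type replicate 5 is the low point of nlp-27 at 8.03, nlp-31 at 7.49 and nlp-26 at 6.36.

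Outside the glycine-rich set 6 of 48 nlp genes rose, 1 fell and 41 did not pass. Thus 12.5% rose and 2.08% fell, where 7.55% of all genes rose and 4.47% fell. The clearest were nlp-7 and nlp-99. In the mutant nlp-7 was at 8.67, 8.45, 8.40, 8.47 and 8.64, and in the wild type at 7.35, 7.56, 7.80, 7.64 and 7.45, and the means differed by 0.96 (SE 0.10, 1.95-fold, limma adjusted p = 0.000163). The level of nlp-99 was 8.78, 8.59, 8.62, 8.73 and 8.70 in mutants, compared with 8.0, 7.63, 7.54, 7.76 and 7.83 in wild-type worms, and the means differed by 0.93 (SE 0.09, 1.90-fold, limma adjusted p = 0.000134). For both genes every mutant array was above every wild-type array. On the second and dimmer probe set of nlp-99 the groups did not overlap either, with a difference of 1.79 (SE 0.36, limma adjusted p = 0.0095), although wild-type values there ran from 4.05 to 6.48.

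The dim gene nlp-2, whose RPamide peptides act through receptors related to that of gonadotropin-releasing hormone, also rose. It was at 5.79, 5.43, 5.34, 5.32 and 5.17 in gas-1 worms, against 4.96, 4.66, 4.61, 4.71 and 4.73 in N2 worms, and the means differed by 0.68 (SE 0.12, 1.60-fold, limma adjusted p = 0.0043). Of the wild-type arrays, 3 were above the background controls. Its neighbours on chromosome X, nlp-22 and nlp-23, which encode related peptides, had differences of -0.11 and 0.01 at or close to background. The neighbour nlp-45 had a difference of -0.03.

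The single fall was in nlp-64. It was at 5.84, 5.80, 5.85, 5.64 and 5.54 in mutants, compared with 6.45, 6.30, 6.35, 6.16 and 6.49 in wild-type worms. The difference of -0.62 (SE 0.09, 1.53-fold lower, limma adjusted p = 0.00162) held under each of the 19 alternatives that tested it.

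The remaining rises were less stable. The level of nlp-20 was 8.87, 8.79, 8.40, 9.59 and 9.73 in gas-1 worms, against 7.99, 8.24, 8.30, 8.23 and 6.96 in N2 worms. Its difference of 1.13 (SE 0.32, 2.19-fold, limma adjusted p = 0.0437) was 0.43 without the 4 arrays that stand apart (limma adjusted p = 0.0486). For nlp-6 the difference was 0.60 (SE 0.16, 1.51-fold, limma adjusted p = 0.0409), with mutant arrays from 6.76 to 7.57 and wild-type arrays from 6.29 to 6.78, which overlap slightly. Its second probe set, close to background in both groups, had a difference of 0.04 (SE 0.12, limma adjusted p = 0.891). For nlp-81 the difference was 0.40 (SE 0.11, 1.32-fold, limma adjusted p = 0.0458), with mutant replicate 1 at 5.61 below wild-type replicate 1 at 5.77. The calls ended without any 1 of 8 arrays for nlp-20, 9 for nlp-6 and 7 for nlp-81, at limma adjusted p up to 0.0979, 0.0877 and 0.115.

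Of the nlp genes that did not pass, nlp-55 had no overlap between groups (6.87 ± 0.52 and 6.04 ± 0.37, SD, n = 5, difference 0.83, SE 0.26, limma adjusted p = 0.0612). For nlp-53 the difference was 0.34 (SE 0.11, limma adjusted p = 0.0709), with mutant arrays from 5.59 to 6.08 and wild-type arrays from 5.32 to 5.72. The brightest nlp genes were nlp-36, nlp-40 and nlp-9, and none passed. The level of nlp-36 was 9.59, 10.22, 10.07, 10.38 and 10.44 in mutants, compared with 10.55, 10.66, 10.69, 10.67 and 10.34 in wild-type worms, a difference of -0.44 (SE 0.15, limma adjusted p = 0.0969). It fell under quantile normalization, array-median centring, array weights and both sets of left-out arrays (limma), so the side of the threshold depends on the processing. The intestinal gene nlp-40, whose peptide times the defecation cycle through the receptor AEX-2, was at 10.12 ± 0.11 in gas-1 worms, against 10.09 ± 0.08 in N2 worms (SD, n = 5), and its 95% interval (-0.14 to 0.20) leaves room only for small differences. For nlp-9 the brighter probe set gave 0.17 (SE 0.16, limma adjusted p = 0.596), while the dimmer one, chosen after its values were seen, gave 0.75 (SE 0.18, limma adjusted p = 0.025). The differences of all 46 nlp genes that did not pass ran from -0.55 to 0.90, and 32 were positive.

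Of 23 ins genes 0 rose and 0 fell by limma, where 7.55% of all genes rose and 4.47% fell. A positive difference was seen in 13 and a negative one in 10, and the median was 0.03. At an unadjusted limma p under 0.05, 2 were higher (ins-4 and ins-35) and 1 lower (ins-11), where 2472 of all 17118 genes were higher and 1938 lower. The exact permutation test put the same 3 ins genes under 0.05. No ins gene had groups without overlap, where 8.31% of all genes were higher and 4.91% lower without overlap. The differences of all 23 ins genes ran from -0.56 to 0.63. Without the 4 arrays that stand apart, 10 of 23 differences were positive, ins-4 rose, and ins-11, ins-30 and ins-34 fell. Of all genes 10.4% rose and 11.5% fell without these arrays.

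The highest difference was in ins-4, which encodes an insulin-like peptide that activates DAF-2. It was at 6.94, 6.27, 6.37, 6.04 and 6.08 in mutants, compared with 6.22, 5.70, 5.64, 5.60 and 5.39 in wild-type worms. Replicate 1 was the highest of each group, wild-type replicate 1 lay above mutant replicates 4 and 5, and the difference of 0.63 (SE 0.19, 1.55-fold) had a limma adjusted p of 0.0619 (exact permutation p = 0.0238). It rose under 6 of the alternatives, among them quantile normalization, array weights and the omission of wild-type replicate 1 (limma adjusted p = 0.0214).

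RefSeq places ins-4 in a run with ins-2, ins-3, ins-5 and ins-6 on chromosome II. The differences of these neighbours were 0.21 for ins-2, 0.13 for ins-3, 0.24 for ins-5 (SE 0.12) and -0.15 for ins-6 (SE 0.19), none of which passed, and the differences between neighbours were not tested. Both ins-4 and ins-6 are known as activators of DAF-2. A second run on chromosome I had ins-24, ins-30 and ins-26 at -0.22, -0.41 and -0.02, none of which passed.

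The lowest difference was in ins-11, a peptide gene of the intestine and neurons that is known for its part in avoidance of pathogenic bacteria. It was at 5.05, 5.12, 5.36, 4.93 and 5.20 in gas-1 worms, against 5.61, 5.87, 5.95, 5.96 and 5.05 in N2 worms. Wild-type replicate 5 was within the mutant range, the other wild-type arrays above it. The difference of -0.56 (SE 0.17, 1.47-fold lower, limma adjusted p = 0.061) did not pass over all arrays and passed without wild-type replicate 5 (limma adjusted p = 0.00195).

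In ins-35, an intestinal peptide gene, the mutant was at 6.33, 6.36, 6.21, 7.04 and 7.06 and the wild type at 6.31, 5.96, 6.11, 6.05 and 6.08. Mutant replicates 4 and 5 again stood above the rest, and the difference of 0.50 (SE 0.18, limma adjusted p = 0.106) did not pass. The brightest ins genes were ins-17, ins-34 and ins-33, with differences of 0.26 (SE 0.15), -0.17 (SE 0.17) and 0.03 (SE 0.19), and the sign of ins-33 turned under 8 alternatives. For ins-7, an intestinal DAF-2 activator whose gene DAF-16 represses, the difference was -0.21 (95% interval -0.52 to 0.10). For the DAF-2 antagonists ins-1 and ins-18 the intervals were -0.20 to 0.19 and -0.11 to 1.19, the latter wide enough to hold a doubling.

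**Figure D4:**
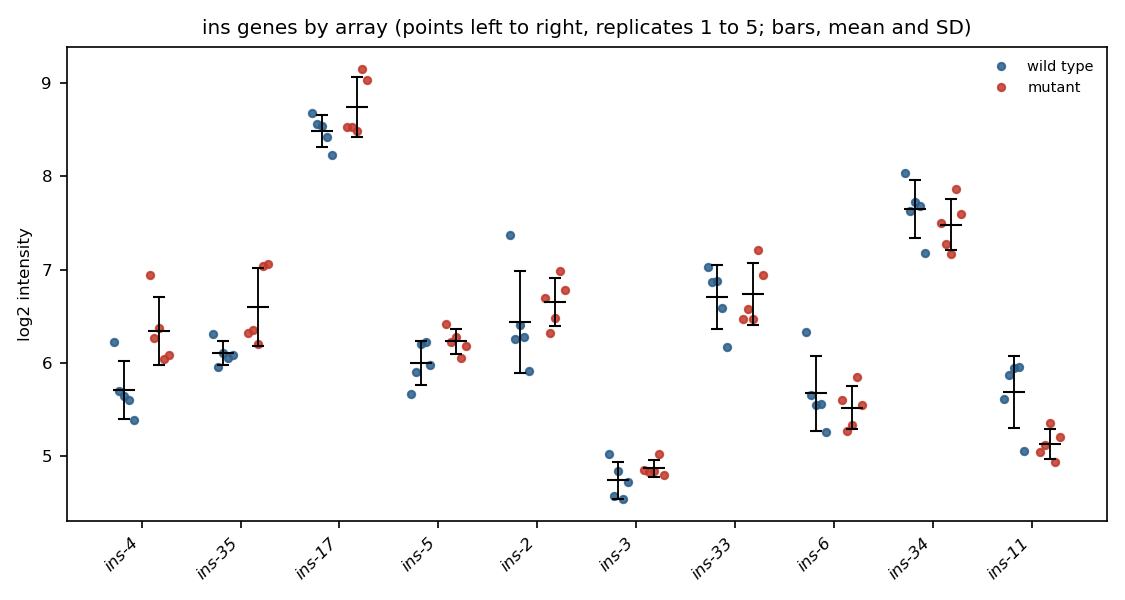
Log2 intensity (y axis) of 10 ins genes on every array, in blue for the wild type and in red for the mutant; bars are the mean and SD of 5 arrays. The groups overlap for every gene shown, with ins-4 the most raised at a difference of 0.63 and ins-11 the most lowered at -0.56.

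Within each genotype the family means differed between arrays. The mean level of the flp genes was 6.74 to 6.84 on mutant replicates 1 to 3 and 7.20 and 7.14 on mutant replicates 4 and 5. In the wild type it was 6.65 to 6.73 on replicates 1 to 4 and 6.29 on replicate 5, so the flp means of the groups did not overlap, by a small margin. Of 25 flp genes, 19 were highest on mutant replicate 4 or 5 among the mutant arrays, and 19 were lowest on wild-type replicate 5 among the wild-type arrays. The counts were 43 and 31 of 58 for the nlp genes, and 12 and 14 of 23 for the ins genes. Such counts were not made for all genes, so they are not read as particular to the peptide genes. The mean level of all genes was also higher on mutant replicates 4 and 5 (7.08 and 7.10) than on mutant replicates 1 to 3 (6.98 to 6.985). In the wild type it was lowest on replicate 5 (6.89, others 6.98 to 7.09). Muscle markers were highest on the same mutant arrays (10.55) and lowest on the same wild-type array (9.18). The mean level of the neuron markers was likewise highest on mutant replicates 4 and 5 (6.85 and 6.87) and lowest on wild-type replicate 5 (6.35). The part of these markers, or of the level of all genes, in the family means was not tested. Within the glycine-rich nlp set mutant replicates 1 to 3 (7.68 to 7.76) were themselves above all wild-type arrays (6.68 to 7.30). For the other nlp genes mutant replicates 1 to 3 (6.29 to 6.35) were within the wild-type range (5.91 to 6.39).

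**Figure D5:**
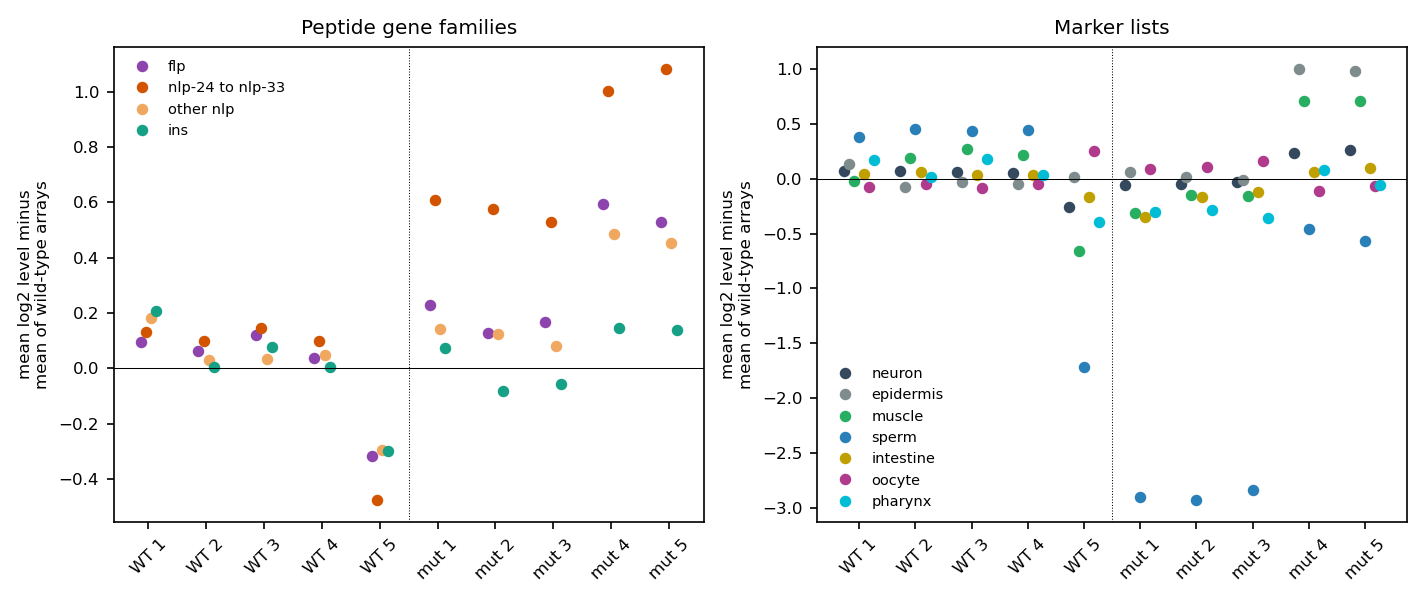
Mean log2 level of each peptide gene family (left) and of each marker list (right) on every array (x axis), as the difference from the mean of the 5 wild-type arrays (y axis). All peptide families are lowest on wild-type replicate 5, as was the mean of all genes (6.89, not drawn). The glycine-rich nlp genes and, by a small margin, the flp genes are above every wild-type array on all mutant arrays. Sperm, muscle and neuron markers separate wild-type replicate 5 and mutant replicates 4 and 5 from their groups.

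Genes that make, release, sense or relay these peptides were read against the same shares of all genes, 7.55% that rose and 4.47% that fell. Among 26 genes for peptide processing and dense-core vesicles 1 rose (3.85%) and 0 fell, and 20 differences were positive with a median of 0.20. The gene that rose was cpd-1, for a carboxypeptidase of the type that trims peptides, at 7.01 ± 0.29 in mutants, compared with 6.29 ± 0.21 in wild-type worms (SD, n = 5, difference 0.72, SE 0.15, limma adjusted p = 0.0113). The main convertase gene egl-3 (0.64, SE 0.26, limma adjusted p = 0.145) and the main carboxypeptidase gene egl-21 (0.45, SE 0.21, limma adjusted p = 0.223) did not pass. Both were highest on mutant replicates 4 and 5. On mutant replicates 1 to 3 they reached 8.22 and 8.90, and their highest wild-type levels were 8.17 and 8.96. Without the 4 arrays that stand apart, 1 processing gene rose (cpd-1) and 3 fell (cpd-2, pgal-1 and nep-22), where 10.4% of all genes rose and 11.5% fell.

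Of 101 measured peptide receptor genes 3 rose (2.97%, where 7.55% of all genes rose), 0 fell (where 4.47% of all genes fell) and the median difference was 0.00. Most of these genes were dim, with a median level of 5.34 against 6.40 for all genes. Only 36 of the 101 remained without the dimmest 33% of probe sets, so their share is not a like comparison with all genes. The receptor gene pdfr-1, for the pigment-dispersing factor peptides that prolong roaming, was at 7.16, 7.31, 7.41, 6.68 and 7.07 in gas-1 worms, against 6.09, 6.11, 6.20, 6.07 and 6.0 in N2 worms. The groups did not overlap, and the means differed by 1.03 (SE 0.13, 2.04-fold, limma adjusted p = 0.00052). The FMRFamide-type receptor gene frpr-7 rose by 0.91 (SE 0.15, limma adjusted p = 0.00355), and frpr-15 by 1.32 (SE 0.22, limma adjusted p = 0.00328) from a wild-type mean of 4.07. Every wild-type array of frpr-15 was below the background controls, so the size of its rise was not resolved. Of the 6 other measured peptide precursor genes (daf-28, pdf-1, pdf-2, snet-1, lury-1 and capa-1) 0 rose and 0 fell by limma, with none at an unadjusted p under 0.05. Among 15 genes of the insulin receptor pathway 2 rose (13.3%, where 7.55% of all genes rose) and 0 fell. They were ftt-2, for a 14-3-3 protein that binds DAF-16 (0.40, SE 0.10, limma adjusted p = 0.0285), and asna-1, for an ATPase that promotes insulin secretion (0.33, SE 0.09, limma adjusted p = 0.0317), and both calls ended when any 1 of 5 arrays was left out.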

How the data were processed

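The deposited values were taken as log2 intensities of Affymetrix probe sets, inferred from their range, and no values were changed. For the deposited log2 table, the sources used here do not give how the authors summarised and normalized the arrays. Array medians ran from 6.22 to 6.61. Without 77 control probe sets, 22548 probe sets were fitted in R 4.3.3 by limma 3.58.1 (eBayes, 2-sided, Benjamini-Hochberg over all), genotype being the only term. The number of arrays limits the precision. Exact permutation used all 252 assignments, with 0.00794 the smallest p possible.

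Genes were named from the platform annotation, and gene order came from RefSeq (WBcel235). Background was the median of 27 Bacillus control probe sets, whose own means spread from 2.9 to 7.35. Members, gene lists and alternatives were chosen with earlier results of these data known. Named genes are gas-1, all called members, the 3 brightest of each family, up to 3 per family with the lowest p among those not called, second probe sets and neighbours of called members, and called genes of the pathway lists; the intestinal and DAF-2 antagonist ins genes, egl-3 and egl-21 were added as background genes after values were seen. For changes of 0.5, 1, 2 and 3 simulated over 22548 probe sets of the mutant and wild-type comparison, 36%, 80%, 96% and 100% of 50 changed probe sets per size were recovered, beside 9 false calls. The simulated noise was independent between probe sets and arrays. It does not hold the shifts of many genes together on single arrays described above, so these rates may not apply to the real arrays. Same-numbered arrays did not deviate together (r from -0.18 to 0.10), so no pairing by number was seen. A weak pairing could be missed, because arrays of unlike number had r from -0.26 to 0.32. The p-values measure the spread between the labelled biological replicates.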

Additional observations from a re-analysis of the deposited data

Results flagged for a closer look

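Among 5 arrays, 1 array can lie so far from the other 4 that its gap fills most of the group's range. With 82 groups of 5 arrays examined, 9 were of this kind, where chance alone gives about 1 in 20 for independent groups. These groups are not independent, because they share arrays and the family means include flagged genes, so the count is a description only. In 8 of the 9 the array was wild-type replicate 5. It was high for flp-6 (9.15, others 7.88 to 8.20) and nlp-28 (8.26, others 7.76 to 7.82). It was low for nlp-31 (7.49, others 8.31 to 8.37), nlp-20 (6.96, others 7.99 to 8.30), nlp-27 (8.03, others 9.15 to 9.24) and gas-1 (10.12, others 10.47 to 10.57). It was also low for the mean level of the flp genes (6.29, others 6.65 to 6.73) and of the nlp genes (6.04, others 6.41 to 6.54). In the mutant, nlp-81 was low on replicate 1 (5.61, others 5.88 to 5.92). Not all members were among the groups examined. The low value of nlp-26 on wild-type replicate 5, given above, was outside them.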

How the results depend on the processing

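Of the 15 called peptide genes, 10 kept their call under each alternative that tested them, of 20 in all, 5 lost it under 1 or more (flp-18, nlp-31, nlp-6, nlp-20 and nlp-81), and 0 changed sign. The cause of the changes below was not tested. Each setting is followed by the share of all genes that rose and fell under it, which was 7.55% and 4.47% as reported. Quantile normalization (7.08% and 6.08%) gave 2 nlp genes that fell, 1 ins gene that rose and 2 processing genes that rose. Centring on array medians (5.82% and 5.05%) gave 2 nlp genes and 1 ins gene that fell and 1 insulin pathway gene that rose. Without the dimmest 33% of probe sets (12.3% and 7.78%) 1 ins gene and 2 processing genes rose. Without the dimmest 50% (15.5% and 10.9%), which removes members from the test (18 flp, 27 nlp and 7 ins genes remain), 6 flp genes, 2 processing genes and 1 receptor gene rose, 0 nlp genes and 1 insulin pathway gene fell. An intensity trend with robust variances (8.72% and 5.74%) gave 2 processing genes that rose and 1 insulin pathway gene that fell. Array weights (13.2% and 11.8%) gave 17 nlp, 2 ins, 4 processing and 6 receptor genes that rose, and 4 nlp (1 of the glycine-rich set), 2 ins, 1 insulin pathway and 3 receptor genes that fell. Without the 4 arrays that stand apart (10.4% and 11.5%), 1 ins gene and 5 receptor genes rose, and 2 flp, 6 nlp (1 of the glycine-rich set), 3 ins, 3 processing, 1 other precursor and 3 receptor genes fell. Without mutant replicates 4 and 5 (5.29% and 3.53%), 7 nlp genes and 0 insulin pathway genes rose and 2 nlp genes fell.

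With the replicate number as a block (4.84% and 1.69% of all genes), 2 flp, 7 nlp, 1 ins and 0 insulin pathway genes rose, although the numbers share no pairing that the correlations of deviations bear out.

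With 1 array left out at a time (5.32% to 8.34% of all genes rose and 2.2% to 7.53% fell), 2 to 4 flp genes, 7 to 11 nlp genes, 0 to 1 ins genes, 1 to 2 processing genes (2 without mutant replicate 3), 0 to 2 insulin pathway genes and 3 to 4 receptor genes rose. The 7 nlp genes, and the 0 insulin pathway genes, came without mutant replicate 4 or 5 or wild-type replicate 2, 3 or 4. Falls ranged from 1 to 3 nlp genes (3 without wild-type replicate 5), 0 to 1 of the glycine-rich set and 0 to 1 ins genes (1 without wild-type replicate 5), and 0 to 2 receptor genes (2 without wild-type replicate 5). The ins gene that rose did so without wild-type replicate 1.

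The ins-33 difference turned to -0.046 with quantile normalization, -0.021 with centring, -0.11 with array weights, -0.27 without the 4 arrays, -0.20 without mutant replicates 4 and 5, and ran from -0.11 to 0.11 with 1 array left out. The nlp-40 difference turned to -0.0007 with quantile normalization, -0.021 with centring, -0.01 without the 4 arrays, -0.036 without mutant replicates 4 and 5, and ran from -0.015 to 0.065 with 1 array left out. The nlp-9 difference turned to -0.0001 without mutant replicates 4 and 5. No result that turned had passed the test.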
